A study of Homo sapiens with 7 samples.

Results

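The genomic regions occupied by MED1 and by EP300 were compared in OCI-Ly7 cells by sorting each peak according to whether the other protein had a peak at the same place. A peak, called a region here, was counted as shared where it overlapped a region of the other list by at least 1 bp on chromosomes 1 to 22 and X. The MED1 list held 43508 regions and the EP300 list 82569, out of 323423 regions over the 6 factors of the series. This gave 38898 MED1 regions with EP300, 4610 MED1 regions without EP300 and 47806 EP300 regions without MED1. The 34763 EP300 regions that overlapped MED1 are the shared places seen from the EP300 list.

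OCI-Ly7 is an established line from a human diffuse large B-cell lymphoma, grown in suspension. Beside MED1 and EP300, the acetyltransferase CREBBP, the lymphoid coactivator OCA-B and the octamer-binding factors OCT1 and OCT2 were mapped by ChIP-seq (sequencing of immunoprecipitated chromatin), with an input library as the control. All cells were of the same unmodified line, no treatment is named in the labels, and each factor had 1 library. Every difference below therefore describes 2 libraries, and none has a replicate check. The MED1 antibody was A300-793A from Bethyl, and the library labelled EP300 used sc369 from Santa Cruz. The library labelled CREBBP used sc-584, and as these antibodies are commonly catalogued sc-369 is sold against CBP (CREBBP) and sc-584 against p300 (EP300). Which of the paralogs each label stands for cannot be told apart here. "EP300" below means the library with that label.

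MED1 is a subunit of Mediator, the large complex that carries signals from DNA-bound transcription factors at enhancers to RNA polymerase II at promoters. EP300 and its paralog CREBBP are acetyltransferases that are recruited by many transcription factors and acetylate histone H3 on lysine 27 at enhancers and promoters. In B cells both kinds of coactivator are found at enhancers bound by lineage factors, and CREBBP and EP300 are often mutated in germinal centre lymphomas.

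The libraries were not equally deep. After filtering, 18459398 tags were kept for MED1 and 27885791 for EP300, and 37517450 for the control. The redundant rate was 0 for MED1 and 0.2 for EP300. Pileup is the number of overlapping fragments at a summit (the position of highest signal in a region). Because of the unequal depth it is compared below only within its own list, mostly as a percentile. Where pileups of both libraries are printed for a single place, they are not comparable with each other. Since 1 tag was kept per position and strand, pileup could not pass 2 fragment lengths, which were 348 for MED1 and 304 for EP300. At this limit stood 9 MED1 and 132 EP300 regions, so the order among the strongest regions is not resolved by pileup alone.

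Promoter sequences are shown as examples of start sites covered by each class. The RefSeq table of promoters (GRCh38.p14, the same build as hg38) held 22011 windows of protein-coding genes that could be placed in this way, each from 250 bases before to 50 bases after a start site. For each class the genes of highest pileup are shown whose whole window lay inside a region of that class. Genes of immunoglobulin, replication-dependent histone and small nuclear RNA families and windows touched by another class were passed over. The 250 bases before the start are printed 5′ to 3′ on the gene's own strand. Capitals mark the matches, on either strand, to the octamer (ATGCAAAT, the site of OCT1 and OCT2), the TATA box (TATAAA), the CCAAT box (CCAAT) and the GC box (GGGCGG).

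BTN3A2 (butyrophilin) and LOC124903372 were the examples for MED1 with EP300, out of 462 genes that met the rule. The BTN3A2 sequence lies at chr6:26364948-26365197 (+ strand) and was covered by a MED1 region 8990 bp wide. That region had a fold over control of 29.1, with an EP300 fold of 7.23 at the window, and its summit lay at -4400 bp, upstream of the start. LOC124903372 lies at chr14:95664563-95664812 (+ strand), with folds of 35.8 for MED1 and 25.1 for EP300.
BTN3A2: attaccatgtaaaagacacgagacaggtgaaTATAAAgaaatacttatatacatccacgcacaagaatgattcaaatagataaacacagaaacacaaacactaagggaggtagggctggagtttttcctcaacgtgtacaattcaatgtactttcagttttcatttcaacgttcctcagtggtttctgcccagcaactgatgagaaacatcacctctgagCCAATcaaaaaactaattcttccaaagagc
LOC124903372: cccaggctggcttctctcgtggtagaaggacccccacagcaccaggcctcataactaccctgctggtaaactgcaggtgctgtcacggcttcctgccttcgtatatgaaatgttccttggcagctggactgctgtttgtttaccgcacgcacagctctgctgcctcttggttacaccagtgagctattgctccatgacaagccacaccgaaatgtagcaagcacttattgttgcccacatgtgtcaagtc

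H3-7 and CRLS1 were the only 2 genes that met the rule for MED1 without EP300. H3-7 is a histone H3 gene. It was kept because histone genes were passed over by the form of their symbol, which H3-7 does not have. Whether reads were placed among it and other histone genes was not tested. The H3-7 sequence lies at chr1:143905978-143906227 (- strand), and the MED1 fold there was 21.1. CRLS1, the cardiolipin synthase gene, has its sequence at chr20:6006999-6007248 (+ strand), and the MED1 fold there was 5.05, with a pileup of 14 beside the class median of 13.
H3-7: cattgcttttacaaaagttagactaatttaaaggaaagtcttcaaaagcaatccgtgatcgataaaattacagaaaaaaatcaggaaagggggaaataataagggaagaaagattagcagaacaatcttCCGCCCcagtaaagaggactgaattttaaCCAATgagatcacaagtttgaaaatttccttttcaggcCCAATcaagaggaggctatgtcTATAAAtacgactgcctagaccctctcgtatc
CRLS1: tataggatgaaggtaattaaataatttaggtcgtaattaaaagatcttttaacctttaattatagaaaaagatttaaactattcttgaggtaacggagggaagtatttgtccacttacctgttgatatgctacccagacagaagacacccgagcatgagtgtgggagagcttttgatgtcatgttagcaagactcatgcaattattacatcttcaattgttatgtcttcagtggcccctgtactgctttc

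CDC25B and SH3PXD2A were the examples for EP300 without MED1, out of 107 genes that met the rule. CDC25B, a phosphatase that activates cyclin-dependent kinases, has its sequence at chr20:3799798-3800047 (+ strand), and the EP300 fold there was 18.9. SH3PXD2A, an adaptor of invasive cell protrusions, has its sequence at chr10:103678216-103678465 (- strand), and the EP300 fold there was 13.9.
CDC25B: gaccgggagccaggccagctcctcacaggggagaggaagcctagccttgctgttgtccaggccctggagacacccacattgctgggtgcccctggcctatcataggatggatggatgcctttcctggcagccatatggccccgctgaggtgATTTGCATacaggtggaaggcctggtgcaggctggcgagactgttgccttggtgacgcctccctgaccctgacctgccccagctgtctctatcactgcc
SH3PXD2A: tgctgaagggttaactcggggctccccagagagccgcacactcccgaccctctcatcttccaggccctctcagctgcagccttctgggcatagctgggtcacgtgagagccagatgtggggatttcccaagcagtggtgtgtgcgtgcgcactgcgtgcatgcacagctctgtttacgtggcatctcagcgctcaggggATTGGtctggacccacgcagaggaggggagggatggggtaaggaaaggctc

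Of these promoters, that of CDC25B held an octamer, beginning at position -99 from the start and printed in its reverse orientation. The H3-7 promoter held a TATA box at -32, CCAAT boxes at -92 and -54 and a GC box at -121. For each window, matches and GC content were read only in the bases before the start, the stretch printed for the examples. An octamer was found there in 2.65% of the 3241 promoters touched only by MED1 with EP300. It was found in 1.61% of the 1865 touched only by EP300 without MED1 and in 1.39% of the 16212 touched by neither list. The share over all windows was 1.58%. In the 93 windows touched only by MED1 without EP300, 1 octamer was found (1.08%). A TATA box was found in 16 of these 93 windows (17.2%). It was found in 9.07% of those with both proteins and in 4.93% of those with EP300 alone, against 9.02% of all windows. The GC box ran the other way, at 50.2% with both proteins and 61.7% with EP300 alone (53.7% of all windows). CCAAT boxes stood at 39.4%, 38.7% and 38.8% in the 3 classes and at 30.3% in windows of neither list. Median GC content was 56.4% in windows with both proteins, 61.2% with EP300 alone and 63.6% in windows of neither list (a GC box in 52.9% of these). GC content thus did not order the classes as the GC box did, and its part in these shares was not tested. A match is a description of letters, not of a bound site.

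By an overlap of 1 bp most MED1 regions lay on EP300, and fewer than 1 EP300 region in 2 lay on MED1. The overlap covered 89.4% of MED1 regions (exact binomial 95% interval 89.1 to 89.7%, which covers counting error only) and 42.1% of EP300 regions (41.8 to 42.4%). By chromosome, the MED1 share ran from 86.7% on chromosome 6 to 93.1% on chromosome 10. The EP300 share ran from 37.8% on chromosome 7 to 47.0% on chromosome 19. The lists differ in length and depth. Where the EP300 list was shortened to the MED1 length by −log10 q, the shares were 74.7% and 62.0%. With summits required within 250 bp they were 71.9% and 37.9%, and with 50% of both regions overlapping 46.2% and 24.3%.

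Overlap rose with the strength of the region in both lists. In the lowest pileup decile of the MED1 list 61.1% of regions lay on EP300, and from decile 6 upward at least 96.5% did. Among EP300 regions the share was 7.78% in the lowest decile, 29.9% in decile 5 and 98.0% in the highest decile. The strongest EP300 regions were thus nearly all MED1 regions, while the weakest MED1 regions were still mostly EP300 regions.

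**Figure D1:**
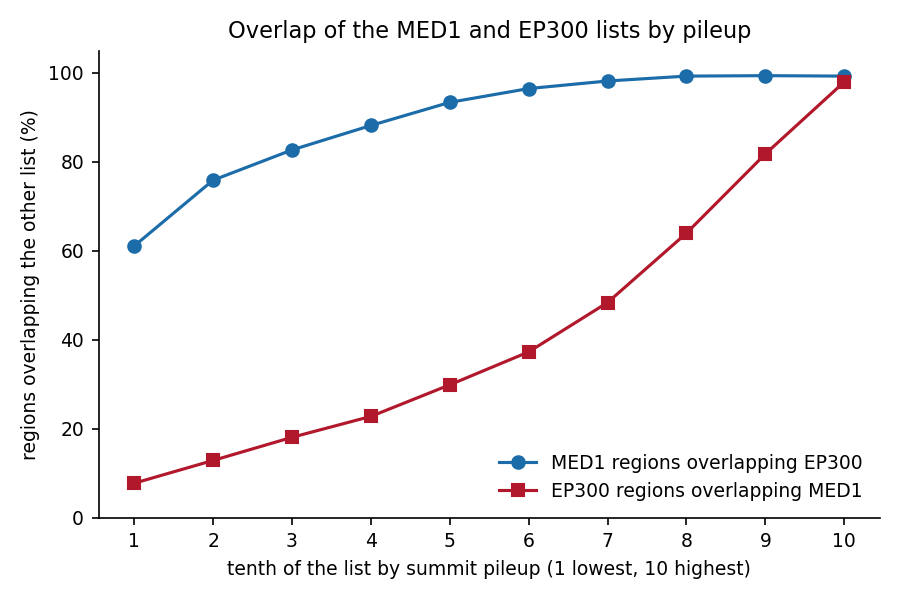
Share of regions overlapping the other list (y axis, percent) in each decile of a list by summit pileup (x axis, 1 lowest and 10 highest), with 1 point per decile, MED1 in blue circles and EP300 in red squares. MED1 starts at 61.1% and is flat near 99% from decile 8, and EP300 climbs from 7.78% to 98.0%.

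Regions with a partner were wider and stronger than those without. Median width was 375 bp for MED1 with EP300 and 219 bp for MED1 without EP300, against a fragment length of 174 bp. It was 626 bp for EP300 with MED1 and 253 bp for EP300 without MED1. The median pileup percentile within the MED1 list was 54.4 with and 16.1 without EP300, and within the EP300 list 75.5 with and 35.2 without MED1. Median folds over control, as the authors' peak caller gave them, were 5.49 and 4.11 in the MED1 list and 8.71 and 4.6 in the EP300 list. The direction of the difference in width and in pileup was the same on 23 of 23 chromosomes for both lists. The interquartile ranges of MED1 pileup percentile did not overlap (32.2 to 77.8 with EP300 and 6.76 to 27.0 without), while the outer parts did, with 10% of regions with EP300 at or under 16.1. A wide region has more chances to overlap another. Within quintiles of width the pileup difference remained, for example 21.5 with and 11 without EP300 in the narrowest MED1 quintile and 87.3 and 51.6 in the widest.

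EP300 regions at gene boundaries were more often shared with MED1 than distal ones. A boundary region had its summit within 1 kb of a start site of a protein-coding or lncRNA gene, or of either end of a gene for which the promoter table gave no start. Of EP300 regions at boundaries 56.3% overlapped MED1, against 37.4% of distal regions inside genes and 42.1% of distal regions between genes. In other terms, boundary regions made up 24.2% of EP300 regions with MED1 and 13.6% of those without, a difference of 10.6 percentage points that had this direction on 23 of 23 chromosomes. EP300 regions without MED1 lay inside genes in 59.7% of cases and between genes in 26.6%. The boundary difference remained within quintiles of pileup: in the lowest EP300 pileup quintile the shares were 26.9% with and 10.0% without MED1, in the fourth 32.2% and 16.2%, and in the highest 14.6% and 10.1%.

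At an overlap of 1 bp on the full lists, the boundary share of MED1 regions differed little between the classes. It was 22.6% with and 21.8% without EP300, a difference whose interval (-2.04 to 0.501 percentage points, without minus with) included 0, and the share without EP300 was the higher one on 10 of 23 chromosomes. In the lowest 4 pileup quintiles the share was higher without EP300 (17.8% against 16.0% in the lowest, 32.2% against 25.2% in the third), and in the highest it was lower (12.7% against 21.2%). The sign also turned with the rules: the difference was -6.39 points with summits within 250 bp, -12.7 with 50% of both regions overlapping, 6.62 with lists of equal length and 6.95 at a −log10 q of at least 5. Distal between genes lay 34.1% of MED1 regions without EP300, against 26.0% of those with EP300, with this direction on 21 of 23 chromosomes. Inside genes lay 44.1% and 51.4%.

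**Figure D2:**
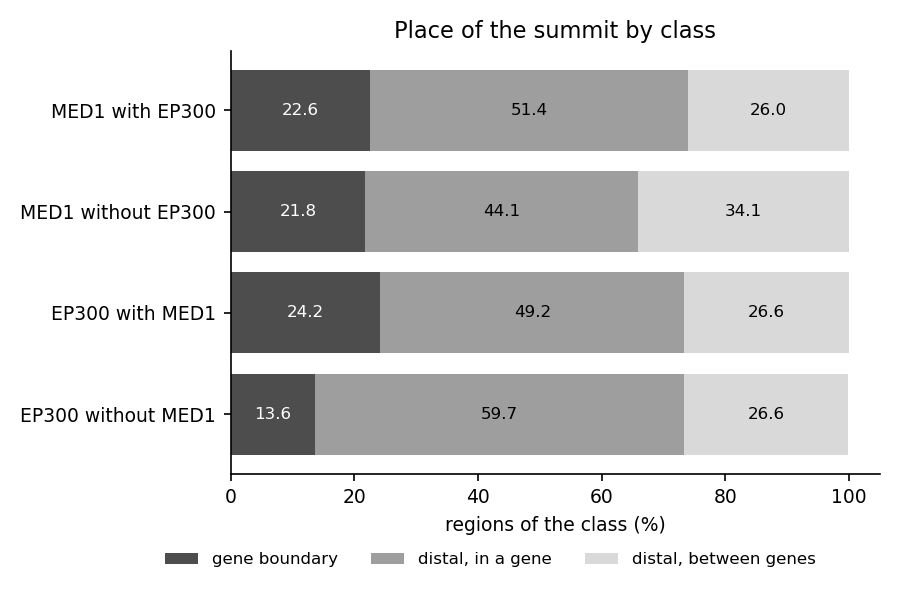
Share of regions (x axis, percent of the class) with the summit at a gene boundary, distal inside a gene, or distal between genes, 1 bar per class. EP300 without MED1 has the smallest boundary part (13.6%), and MED1 without EP300 the largest part between genes (34.1%).

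Around start sites the MED1 regions without EP300 were placed unlike the other classes. Of the 7113 MED1 regions with EP300 within 1 kb of a start, 33.1% had the summit within 250 bp, and the median position was -23 bp, upstream of the start. Of the 790 without EP300, 13.0% were within 250 bp, and the median position was 344.5 bp into the gene. EP300 regions with and without MED1 peaked just upstream of the start as shared MED1 regions did, with 37.3% and 33.9% within 250 bp. A MED1 region on such an EP300 region is shared by the overlap rule, so the rule itself takes it out of the MED1-only class. How much of the placement of that class comes from the rule was not tested. Counted over protein-coding starts, 608 of 37365 MED1 regions with EP300 (1.63%) and 10 of 4453 without (0.225%) had the summit within 100 bp of a start. From 1 to 5 kb into the gene lay 8.61% and 11.9%. Starts are not given for chromosome 8, which is left out of these counts.

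**Figure D3:**
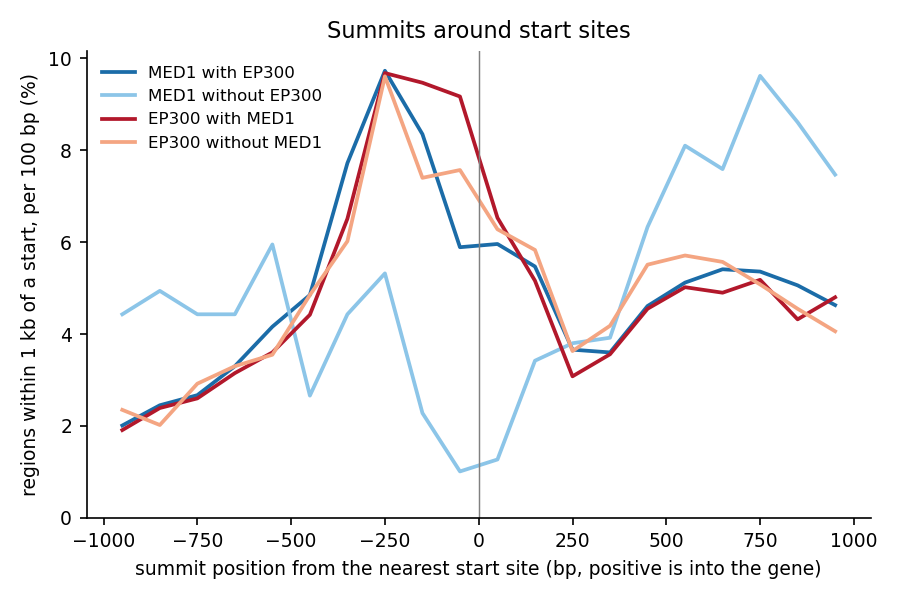
Position of summits around the nearest start site (x axis, bp, positive into the gene) as a percent of the class's regions within 1 kb of a start, in bins of 100 bp (y axis), 1 line per class. The 3 classes that hold EP300 peak upstream of the start, while MED1 without EP300 is lowest at the start and highest past 500 bp into the gene.

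The far end of genes showed the opposite. Within 1 kb of the end of a protein-coding gene, and more than 1 kb from any protein-coding start, lay 236 MED1 regions without EP300 (5.3%) and 616 with EP300 (1.65%). The same shares in the EP300 list were 1.8% with and 1.51% without MED1. The direction in the MED1 list held on 22 of 22 chromosomes. It held in the lowest 4 pileup quintiles (6.07% without and 1.39% with EP300 in the lowest, 2.83% and 1.67% in the fourth) but not in the highest, where 0 of 54 regions without EP300 lay at a gene end. In the 5 width quintiles the share without EP300 was 4.61% to 8.11% and with EP300 1.52% to 1.72%. With only genes of at least 5000 bp counted, the shares were 4.4% and 1.31%. The 236 regions were weak, with a median pileup percentile of 11, a median fold of 4.19 and a median width of 235 bp, and they fell at 205 genes. Within the 1 kb on either side their summits fell about evenly, 48.7% of them before the annotated end. Those of highest pileup, named after their values were seen, were at H3-7 (fold 14.5), HFE (7.42), HES7 (5.27), H2BC4 (9.68) and ACP4 (6.27), and at the ends of JUND, a subunit of the AP-1 factor (3.89), and of EIF1, a translation initiation factor (5.75). Of these regions 30.5% lay in none of the OCA-B, OCT2, OCT1 and CREBBP lists, against 55.1% of the other MED1 regions without EP300. OCT2 lay on 47.0%, OCA-B on 37.3% and CREBBP on 33.5% of them, above the 32.9%, 25.3% and 16.2% of the whole class, while OCT1 lay on 0.847%, below the 4.43% of the class.

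The other factors of the series separated shared from unshared regions in both lists. Of MED1 regions with EP300 85.7% overlapped OCT2, 77.6% OCA-B, the B cell coactivator of OCT factors, 76.9% CREBBP and 30.5% OCT1. Of those without EP300 32.9% overlapped OCT2, 25.3% OCA-B, 16.2% CREBBP and 4.43% OCT1, and 53.8% overlapped none of these 4 lists, against 7.41% with EP300. EP300 regions gave nearly the same split, with 87.1% and 34.8% on OCT2, 80.1% and 23.8% on OCA-B, 78.0% and 16.9% on CREBBP, and 34.2% and 6.89% on OCT1 for regions with and without MED1. Strength moved with these shares. In the lowest MED1 pileup quintile OCT2 was at 63.0% of regions with and 26.2% of those without EP300, and in the fourth at 97.2% and 55.5%.

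Among EP300 regions without MED1, as in the other classes, OCA-B and OCT1 were more frequent at boundaries than at distal places. OCA-B lay on 55.4% of these boundary regions and OCT1 on 26.9%. Distal regions inside genes had 17.9% and 3.68%, and those between genes 20.8% and 3.86%. OCT2 differed less, at 40.0%, 33.5% and 35.0%, and CREBBP not in this direction, at 15.7%, 16.6% and 18.1%. OCA-B was thus on more EP300-only boundary regions than OCT2 was.

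The CREBBP-labelled list held 44585 regions, close to the length of the MED1 list, and covered 70.4% of MED1 regions. Both acetyltransferase lists lay on 29903 MED1 regions, EP300 alone on 8995 (20.7%), CREBBP alone on 748 (1.72%) and neither on 3862 (8.88%). Of CREBBP regions 73.1% overlapped MED1.

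Where both proteins were present their summits lay close together. The overlaps formed 41342 pairs, of which 26294 (63.6%) were 1-to-1, each region having no other partner. In these pairs the MED1 region had a median width of 353 bp and the EP300 region 575 bp, and the MED1 region lay wholly inside the EP300 region in 61.5%. The median distance between summits was 44 bp (quartiles 20 and 92 bp), well under the fragment lengths of 174 and 152 bp. It was within 50 bp in 54.8%, within 100 bp in 77.5% and over 250 bp in 5.73%. There was no side: the EP300 summit was at the higher coordinate in 50.3% and at the lower in 49.0%. In the 5572 pairs near a start the EP300 summit lay a median of 6 bp further along the gene. With all MED1 regions counted, each with its nearest EP300 summit, the median was 56 bp, and over all pairs 63 bp. Multiple partners were more frequent in the EP300 list, where 4930 regions (14.2% of those shared) held at least 2 MED1 regions, than in the MED1 list, where 2006 (5.16%) held at least 2 EP300 regions.

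Summits were closest where MED1 was strongest. The median offset of the 1-to-1 pairs was 67 bp in the lowest MED1 pileup quintile, 48 bp in the third and 27 bp in the highest. By place it was 50 bp at gene boundaries, 43 bp distal inside genes and 41 bp between genes. The number of fragments at a summit rises along the same quintiles, and its part in this trend was not tested.

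**Figure D4:**
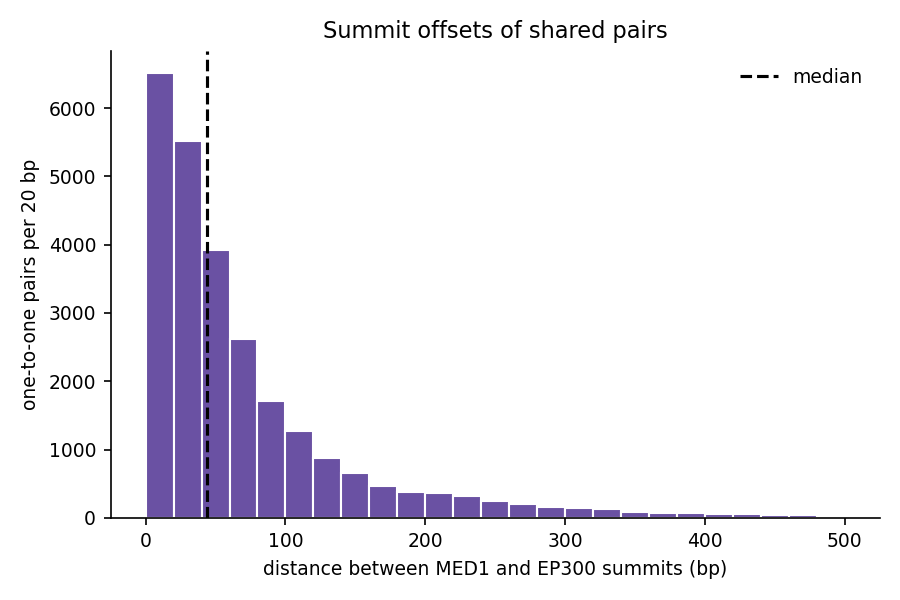
Distance between the MED1 and EP300 summits (x axis, bp, up to 500) of the 1-to-1 pairs, as the number of pairs per 20 bp (y axis), with the median of 44 bp as a dashed line. The first bin is the highest, and the counts fall steadily with distance.

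The signals of both proteins tended to rank shared places alike. Across the 26294 pairs, Spearman's rho of the pileup percentiles was 0.674 and that of the widths 0.604, as a description across places that share libraries and the same control. Where MED1 was in its highest decile (2013 pairs) the median EP300 percentile was 96.8, and where MED1 was in its lowest decile it was 45.

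The limit of 1 bp left few pairs at the edge. Of all pairs 141 overlapped by 1 to 10 bp and 757 by less than 50 bp, against a median overlap of 329 bp. On the other side, 1217 MED1 regions without EP300 (26.4%) had an EP300 region within 250 bp and 87.7% within 10 kb, at a median gap of 731 bp. EP300 regions without MED1 were further off, with 3848 (8.05%) within 250 bp and 62.1% within 10 kb of a MED1 region, a median gap of 4379.5 bp, and 3913 more than 100 kb away.

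The MED1 regions of highest pileup were mostly at histone genes. All 10 overlapped EP300 and all 4 other lists. Of these, 7 were at replication-dependent histone genes, whose products package newly made DNA. At H3C3 (chr6:26040511-26047246) MED1 had a pileup of 348 and a fold of 69.5, and the EP300 regions there reached a pileup of 112 and a fold of 9.91. At H2BC21 (chr1:149883385-149887100) the values were 347 and 70.5 for MED1 and 119 and 16.3 for EP300. At the cluster around H4C2 (chr6:26019284-26038882) a MED1 region of 19599 bp held 8 EP300 regions, of fold up to 24.7 beside 41.6 for MED1. The other histone regions were at H2BC5, H2BC4, H2BC8 and H2BC7. Histone genes of the same type resemble each other in sequence. Reads may have been placed among such genes, which was not tested. The widest MED1 region, at the immunoglobulin kappa constant segment IGKC (chr2:88829134-88862176, 33043 bp), held 13 EP300 regions, with folds of 26.2 for MED1 and up to 29.5 for EP300. The remaining regions were inside ALDH5A1 (chr6:24511582-24516114, folds 29.5 and 22.4), which encodes an enzyme of GABA breakdown, and in a lncRNA gene at chr6:87875097-87882907 (folds 32.2 and 25.1), whose nearest protein-coding gene, SPACA1, is 168130 bp away.

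Of the 10 strongest EP300 regions with MED1, 8 were distal. Gene boundaries held 24.2% of this whole class and 9.24% of its 8093 regions in the highest EP300 decile. First of the 10 was a place inside BCOR, a BCL6 corepressor gene (chrX:40126806-40128331, folds 49.2 for EP300 and 59.3 for MED1). Next was a place 882673 bp from PCDH10, a protocadherin gene (chr4:132264769-132269814, 45.1 and 46.5). At NLRP11, a gene of the NLR family, the folds were 43.9 for EP300 and 43.5 for MED1. The others lay in or nearest to ANKS1B, PCDH9, FMO1, CABIN1 (a calcineurin inhibitor), TNS3, UTP3 and CAMK2D, with EP300 folds of 39.7 to 43.9 and MED1 folds of 18.5 to 57.8. All 10 stood at the EP300 pileup limit of 304, as did 132 EP300 regions in all.

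The 10 MED1 regions of highest pileup without EP300 looked different from the rest of their class. In 7 of them, the summit lay at chr1:629035-634898, over pseudogene copies of mitochondrial genes (such as MTND1P23, MTND2P28, MTCO1P12, MTCO2P12, MTATP6P1, MTCO3P12), with pileups of 145 to 257 but folds of only 1.57 to 2.15. The other 3 lay 230732 bp from SHCBP1 (fold 1.47), 39712 bp from CHAMP1 (2.63) and 737521 bp from EMB (1.71), also with low folds. Of the 28 regions of this class in the highest MED1 decile, 19 had a fold under 3, 9 were at mitochondrial pseudogenes and 3 at ribosomal RNA genes, sequences that exist in many copies. At these places the control background behind the fold was therefore high as well.

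Ranked by fold instead, a choice made after the values were seen, the class was led by a boundary region of LOC102724334 (chr21:5972269-5973432, fold 43.4). H3-7 (21.1) and TNN, which encodes tenascin N (16.5, a region of 5116 bp), followed, then a place inside MYC, the proto-oncogene, 1241 bp from an end of the gene (15.6). EP300 regions lay 12010, 940, 1267 and 2108 bp away. Histone genes H3C15 (14.9) and H4C13 (13.7) and immunoglobulin lambda, at IGLL5 (12.7), were also among the first 10.

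EP300 regions without MED1 of highest pileup were clear enrichments. The first was in PKD1L1 (chr7:47937957-47939174) with a pileup of 201 and a fold of 26.3, 331 bp from a MED1 region. Near SEMA7A, a semaphorin gene, and in NFATC1, which encodes a calcium-regulated factor of lymphocytes (nearest protein-coding start that of LOC124904333, 43912 bp away), the fold was 32.1. Another 6 were nearest to ZDHHC16, ANTXRL, SEC13, VAV2 (a guanine nucleotide exchange factor of antigen receptor signalling), SOX2 and SMIM41, with folds of 20.1 to 31.3. All 10 also lay in the OCT2, OCA-B and CREBBP lists. Over the highest EP300 decile, 166 regions lacked MED1, and 98.8% of them overlapped OCT2, 95.8% CREBBP, 94.0% OCA-B and 42.8% OCT1. The 8093 with MED1 had 99.9%, 100% and 99.7% for the first 3 and 69.1% for OCT1, and a median width of 1493 bp against 654.5 bp.

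Genes of the B cell and of signalling from its receptor stood above the mean of all genes in shared and in EP300-only regions. By mean distal regions, so did the plasma cell, CD40 and NF-kB response, chromatin regulator and T cell lists given below. Over 19970 protein-coding genes, 29.0% had a MED1 region with EP300 at the boundary, 4.6% one without EP300 and 23.3% an EP300 region without MED1. The mean number of distal regions within 100 kb, given to the gene of the nearest boundary, was 1.26 with both proteins, 0.152 with MED1 alone and 1.69 with EP300 alone. Of 24 germinal centre B cell genes 18 had a shared region at the boundary, 1 a MED1-only region and 10 an EP300-only region. Here and below a gene can hold boundary regions of more than 1 class and is then counted in each. The 24 genes had a mean of 13.3 distal shared regions and 10.6 with EP300 alone. KLHL6, a ubiquitin ligase adaptor of germinal centre B cells, had 37 shared, 3 MED1-only and 20 EP300-only distal regions. BACH2, a repressor that holds back plasma cell fate, had 31, 7 and 16, and the factor FOXO1 had 29, 0 and 46. POU2AF1, which encodes OCA-B, had 29, 6 and 25, the chemokine receptor gene CXCR4 26, 3 and 14, and GNA13, a G protein that confines germinal centre cells, 13, 2 and 28.

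The other B cell lists had the same form. Of 25 B cell identity genes 19 had a shared boundary region, with means of 7.44 shared and 5.52 EP300-only distal regions. The Ikaros genes IKZF3 and IKZF1 had 23 and 22 shared and 22 and 20 EP300-only regions, and PAX5, the lineage factor, had 16 and 11. The Src kinase gene BLK had 20 shared, 3 MED1-only and 4 EP300-only regions, and the inhibitory receptor gene CD22 8, 2 and 5. Of 20 B cell receptor signalling genes 14 had a shared boundary region and 0 a MED1-only one, with means of 10.5 and 10.3. PLCG2, the phospholipase of this pathway, had 43 shared and 16 EP300-only regions. For the kinase SYK these were 24 and 32, for the kinase LYN 26 and 22, for PRKCB 9 and 17, and for the linker BLNK 13 and 10. Of 20 plasma cell genes 13 had a shared boundary region, with means of 6.55 and 5.15. IRF4 had 19 shared, 5 MED1-only and 16 EP300-only regions, XBP1 16, 4 and 2, ERN1, the sensor that splices XBP1 mRNA, 15, 3 and 14, JCHAIN 5, 4 and 2, and SLC44A1 3, 0 and 12.

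Other lists had shared and EP300-only boundary regions in nearer numbers. Of 18 CD40 and NF-kB response genes 10 (55.6%) had an EP300-only boundary region and 9 a shared one. Their distal means were 4.44 shared and 4.11 EP300-only regions. CD83, an activation marker, had 11 EP300-only and 3 shared distal regions, and TNFAIP3, an inhibitor of NF-kB signalling, 10 and 12. REL had 8 and 12, TRAF1 7 and 14, BIRC3 6 and 13, and CD40 2 and 2. Of the 32 Mediator subunit genes 21 had a shared and 16 an EP300-only boundary region. Beside a share of 89.3% over all genes, all 30 distal MED1 regions near the subunit genes overlapped EP300. MED26 had 5 of these, MED25 4 and MED14 3, while MED13L, MED15 and MED16 had 4, 3 and 2 EP300-only regions. For CCNC and CDK8, which encode the kinase module's cyclin and kinase, only an EP300-only boundary region was found, and CDK19 had a shared one and 1 distal shared region. Of 13 chromatin regulator genes mutated in lymphoma 3 had a shared and 5 an EP300-only boundary region. Their distal means were 6.38 shared and 5.08 EP300-only regions. BCL7A had 25 shared and 3 EP300-only distal regions, SMARCA4 17 and 5, DNMT3A 13 and 12, KMT2C 7 and 10, and EZH2 3 and 10. The gene EP300 itself had a shared and an EP300-only boundary region, with 4 shared, 3 MED1-only and 3 EP300-only distal regions.

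Of 13 genes of class II antigen presentation 4 had a shared boundary region, 2 a MED1-only one and 4 an EP300-only one. CIITA, the master activator of these genes, had 13 shared and 12 EP300-only distal regions, CD74, the invariant chain, 5 and 0, CTSS 1 and 2, and HLA-DMA 0 and 2. Lists of other cell types were far lower at the boundary, with 3 T cell, 1 myeloid, 2 liver and 0 neuron genes of 20 each having a shared region there. Their distal means were 1.55, 0.45, 0.5 and 0.45 shared and 2.5, 0.7, 1.2 and 1.0 EP300-only regions. Over all genes these were 1.26 and 1.69, so both T cell means were above those of all genes. LCK (10 shared, 3 EP300-only) and CD28 (6 and 15) led the T cell list, CEBPE (3 and 0) the myeloid, APOA1 (5 and 8) the liver and GAD2 (4 and 4) the neuron list.

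**Figure D5:**
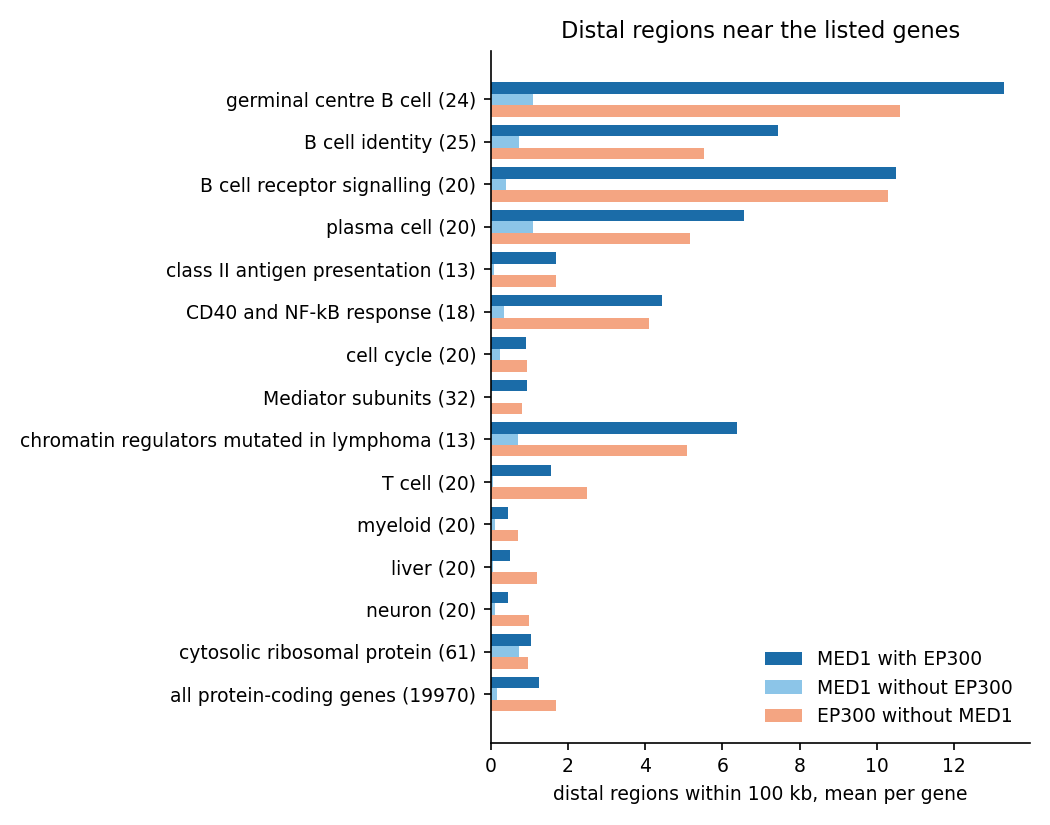
Mean number of distal regions within 100 kb per gene (x axis) of 3 classes, for each gene list (y axis, number of genes in parentheses) and for all protein-coding genes. The B cell lists have long bars for MED1 with EP300 and EP300 without MED1, while for MED1 without EP300 the ribosomal protein bar is 0.721 beside 0.152 for all genes.

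Whether B cell genes had a higher share of MED1 with EP300 than other genes depended on how overlap was defined and on which acetyltransferase list was used. Over all genes 89.3% of distal MED1 regions overlapped EP300 and 39.3% of distal EP300 regions overlapped MED1. Near germinal centre genes these shares were 92.5% (319 of 345) and 50.6%, near B cell identity genes 91.2% and 52.1%, and near B cell receptor signalling genes 96.3% and 42.1%. Over the 3 lists together the MED1 share stood 3.91 percentage points above that of all genes (interval 1.87 to 5.62, counting error only). With summits required within 250 bp of each other, the difference was -11.5 points, and with 50% of both regions overlapping it was -6.52. With the CREBBP-labelled list in place of EP300, at 1 bp, it was -1.08.

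Ribosomal protein genes had, of the 14 lists, the lowest share of distal MED1 regions with EP300 and the most frequent boundary regions of MED1 alone. Of the 61 genes of cytosolic ribosomal proteins, which are transcribed at high levels in growing cells, 46 (75.4%) had a shared boundary region. A boundary region of MED1 without EP300 was at 14 (23%). Over all genes these shares were 29.0% and 4.6%, so boundary regions of both classes were more frequent at ribosomal protein genes. The cell cycle list was near, with 15 and 4 of 20 genes. EP300-only boundary regions were at 23 (37.7%) of the ribosomal protein genes. Of the 108 distal MED1 regions nearest to them 64 (59.3%) overlapped EP300, against 89.3% over all genes. Within the genes and 1 kb on either side lay 150 MED1 regions, of which 40 (26.7%) lacked EP300, over 27 of the 52 genes that had a MED1 region. RPS25 had 4 MED1 regions there, all without EP300, of fold up to 4.2. RPL12 had 5 with 3 lacking EP300, RPL26 likewise 5 and 3, RPS12 4 and 2, and RPS6 4 and 2. By the distal count RPL12 and RPS25 had 5 MED1-only regions each and RPL11 4, beside 1, 0 and 13 shared. RPL21 and RPS29 had 7 shared, and RPL32 and RPS19 had 4 EP300-only. All distal MED1 regions near these genes, shared or not, were weaker than over all genes, with a median pileup percentile of 21.5 against 48.5, and overlap falls with weakness. Among those in the lower 50% of MED1 pileup, 45% overlapped EP300 near these genes and 80.4% over all genes. The unshared MED1 regions inside these genes had a median percentile of 24.3, against 16.1 for those inside all genes. These genes have many processed pseudogene copies, so reads may have been placed among them.

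Cell cycle genes had few distal regions. Of 20 genes 15 had a shared boundary region and 4 a MED1-only one, with some genes in both counts. Of all genes 29.0% had a shared boundary region and 4.6% a MED1-only one. Of 23 distal MED1 regions near the cell cycle genes 18 (78.3%) overlapped EP300, against 89.3% over all genes. The myeloid and neuron lists, with only 11 distal MED1 regions each, were both at 81.8%. MCM3, a subunit of the replicative helicase, had 3 shared, 2 MED1-only and 6 EP300-only distal regions, and MCM5 6, 0 and 3. CCNE1 had 3, 0 and 1, AURKB and BUB1B had 1 MED1-only region each, and MKI67 had 3 EP300-only regions.

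The genes with the most distal regions differed by class. For MED1 with EP300 they were IGLL5 in the immunoglobulin lambda locus (56), FAM167A beside BLK (46), PLCG2 (43), CUX1 (42) and GPCPD1 (41). For EP300 without MED1 they were FOXP1 (56), a forkhead factor of B cells, AKAP13 (51), NCOA3 (49), a nuclear receptor coactivator, FOXO1 (46) and RABGAP1L (46). These 5 also carried 26, 32, 34, 29 and 33 shared regions. The EP300-only regions nearest FOXP1 all lay inside the gene (chr3:70990190-71582313), with a median fold of 4.45, and 21 of 56 overlapped OCT2. For MED1 without EP300 they included CCDC200 (17), RPIA beside the kappa locus (15), RUBCNL (14) and ZNF107 (14). The regions at CCDC200 spanned chr17:43232428-43315218. These 17 had a median pileup of 29 (13 for the class) and a median fold of 3.71 (4.11 for the class). The highest fold was 10.2. Of these regions 13 lay in none of the 4 other lists. At RPIA 2 of 15 and at RUBCNL 3 of 14 lay in none of them.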

How the data were processed

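ChIP-seq peak tables of MED1, EP300 and, for overlap, OCA-B, OCT2, OCT1 and CREBBP were used as the authors deposited them. The build was hg38 and the tools were MACS2 (version 2.1.1.20160309), SAMtools (1.3.1), Bowtie2 (2.3.2.2) and CASAVA (1.8.2), per the submitters' processing notes. Per the file headers, each library was called alone by MACS2 in narrow mode against the same control with a limit of 1 tag per position and a q cutoff of 0.05. The deposited values, per the file headers, are the pileup signal at the summit, −log10 p and q, the fold enrichment ratio over the local control background, and the positions and widths in bp. How duplicates were treated before the MED1 file, whose redundant rate is 0, was called is not given in the sources used here.

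Overlap of at least 1 bp, place, nearest gene and percentile within a list were computed with Python 3.11.15, pandas 2.3.3, numpy 2.4.6 and scipy 1.17.1. Genes, 19970 protein-coding and 18177 lncRNA, came from RefSeq GRCh38.p14, with start sites for 27194 of these genes. The 10953 others, including all on chromosome 8, were placed by either gene end. With 1 library per factor no test was made. Intervals of shares and medians are exact binomial or order-statistic 95% intervals. An interval of a difference joined the intervals of its parts as if they were independent. For the B cell difference they are not, since those regions are part of all distal MED1 regions. The overlap and distance steps were checked on simulated regions. All symbols of the 14 gene lists matched. Named genes were those nearest to the 10 regions of highest pileup per class, the first 3 members of each list and the first 5 of all genes by number of distal regions, and, for promoters, the first 2 genes per class by pileup, leaving out chromosome 8. Names ranked by fold and at gene ends were chosen after their values were seen. Of the genes this rule names, 2 are not reported here. Members and lists were chosen with earlier results of these data known. No genome sequence was used, so sequence under distal summits was not read. Alternatives were summits within 250 bp, overlap of 50% of both regions, equal list length, −log10 q of at least 5, gene families left out, other boundaries and ranks, and, chosen after seeing the data, both gene ends and the CREBBP list.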

Additional observations from a re-analysis of the deposited data

Results flagged for a closer look

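Regions outside chromosomes 1 to 22 and X were not part of the comparison, and each list had signal there. The MED1 list held 1304 regions on alternate contigs, of which 79.8% overlapped EP300, and 185 on unplaced or random contigs, of which 56.8% did. The EP300 list held 2359 and 205 such regions, of which 42.3% and 66.3% overlapped MED1. Alternate contigs repeat sequence of the main chromosomes, and how reads were divided between them was not tested.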

How the results depend on the processing

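No paired analysis was possible because each factor had 1 library. Of 74 alternative values, 17 stayed inside the interval of the reported value, 48 moved and 9 changed sign; the cause was not tested.
With summits within 250 bp, the MED1 and EP300 shares were 71.9% and 37.9%, the MED1 boundary difference -6.39 points, the MED1 width difference -101 bp, the MED1 percentile 32.2, the offset 41 bp and the B cell difference -11.5 points.
With 50% of both regions overlapping, these were 46.2% and 24.3%, boundary differences -12.7 (MED1) and -14.5 (EP300), width differences -164 and -271 bp, percentiles 36.9 and 42.1, 40 bp and -6.52.
With equal list length, they were 74.7% and 62.0%, 6.62 and -8.38, -164 and -407 bp, 21.5 and 26.3, and 53 bp.
With −log10 q of at least 5, the MED1 share was 91.5%, the differences 6.95 and -9.74 points and -186 and -441 bp, the MED1 percentile 17.4 and the offset 47 bp.
Without the gene families the EP300 percentile was 35.3.
The boundary differences were 3.78 and -13.4 at 2.5 kb, -2.52 and -17.4 within width quintiles, and 1.88 and -13.6 within pileup quintiles.
The percentiles were 25.5 and 44.7 within width quintiles and 25.3 and 37.4 by fold, and 1-to-1 pairs gave 44 bp.
Of the alternatives chosen after seeing the data, both gene ends gave 3.07 and -9.85, and the CREBBP list gave 70.4% and 73.1%, 0.445 and -9.1, -200.0 and -191 bp, 21.5 and 22.8, 37 bp and -1.08.
The EP300 boundary difference and both width differences kept their sign throughout; the MED1 boundary difference did not, and the B cell difference rests on the overlap rule and on the acetyltransferase list used.
Weak regions lie near the detection limit of each library, so a missing partner is not shown to be absent, and EP300 had more tags.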
